A study of Caenorhabditis elegans with 9 samples.

Results

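The annular furrow collagens of Caenorhabditis elegans are the products of dpy-2, dpy-3, dpy-7, dpy-8, dpy-9 and dpy-10. These 6 genes were taken by symbol from the 45461 gene rows of the count table, and each symbol matched 1 row. RNA from whole adults, collected 48 hours after the L4 stage, was sequenced in 9 libraries, 3 per group. The control group lived on plates with water alone, another on plates with nicotinic acid, and the other on plates with MNA (1-methylnicotinamide, the methylated form of nicotinamide), all poured from 1 batch of agar. MNA was given at 1 µM. For nicotinic acid the sample labels read 1 mM and the treatment protocol reads 1 nM, so on neither reading were the doses matched. The labels name no strain and no number of animals per library. Libraries are called by group and replicate number, such as control 1.

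The worm cuticle is built mainly of collagens that the epidermis makes in waves before each moult. The furrows are the circumferential grooves between the raised rings, or annuli, and the collagens described here are those whose loss removes the furrows and gives a short, fat (dumpy) body. Loss of furrow collagens is also known to switch on osmotic, detoxification and antimicrobial genes in the epidermis.

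The libraries held between 18501261 and 31247605 counts. Levels are given as CPM, that is, counts brought to 1 common library size with TMM factors. A floor of 3 counts amounted to 0.096 to 0.162 CPM before those factors. All 6 genes were well above this floor in every library. The lowest single value was 71 counts of dpy-9 in control 1, with an exact Poisson 95% interval of 55.5 to 89.56, and the highest was 1212 counts of dpy-10 in control 3, with an interval of 1140 to 1282. These intervals cover counting error only. All 6 genes also passed the filter on low counts that left 13985 genes for testing. In the WBcel235 annotation dpy-2 (T14B4.6) and dpy-10 (T14B4.7) lie on chromosome II, dpy-9 (T21D12.2) on chromosome IV, and dpy-3 (EGAP7.1), dpy-7 (F46C8.6) and dpy-8 (C31H2.2) on chromosome X. That annotation places C31H2.14 over dpy-8 on the opposite strand and T14B4.19 over dpy-10 on the same strand. Neither has a row in the count table, and no strand setting is stated, so reads of these partners cannot be told apart from those of dpy-8 and dpy-10.

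dpy-8 and dpy-9 rose with both compounds, dpy-2, dpy-3 and dpy-7 did not pass the test with either, and dpy-10 had lower mean levels with both without passing it. Against water, 2 of the 6 genes were higher with MNA, where 3.63% of all tested genes were called higher, and 0 of 6 were lower, where 3.78% were called lower (edgeR quasi-likelihood test, Benjamini-Hochberg adjusted p under 0.05). At an unadjusted p under 0.05 the counts with MNA were also 2 higher and 0 lower, beside 8.6% and 10.3% of all genes, and DESeq2 and limma-voom likewise called 2 higher and 0 lower. With nicotinic acid 2 of 6 were higher, against 1.94% of all tested genes, and 0 of 6 were lower, against 3.4%. The lower count with nicotinic acid was 1 at an unadjusted p under 0.05, where 10.6% of all genes were lower and 8.59% higher, and it was also 1 by DESeq2 and by limma-voom, the gene being dpy-10 each time. The median log2 fold change of the 6 genes was 0.17 with MNA and -0.24 with nicotinic acid, beside a median of -0.003 and 0 over all tested genes. These medians moved with single libraries. With MNA the median was 0.02 when control 2 was left out, 0.35 for control 3 and 0.11 for MNA 2. With nicotinic acid it was -0.39 when control 2 was left out, -0.06 for control 3, -0.40 for nicotinic acid 2 and -0.04 for nicotinic acid 3. Both comparisons use the same control libraries.

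**Figure D1:**
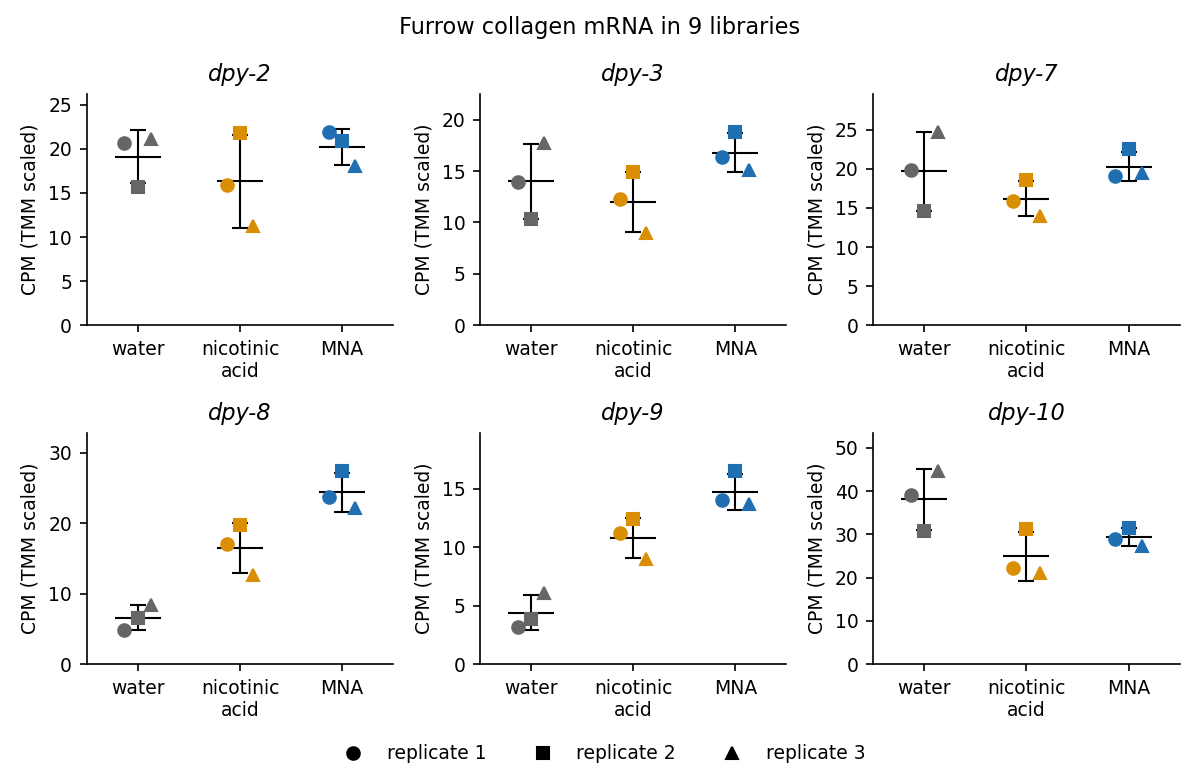
Level of each of the 6 furrow collagen genes, in CPM, in each of the 9 libraries, by group; points are libraries and bars are group means with SD (n = 3). For dpy-8 and dpy-9 every treated library lies above every control library. For the other 4 genes the treated and control libraries overlap.

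dpy-8 encodes a furrow collagen whose loss makes worms dumpy. Its level in the control replicates 1, 2 and 3 was 4.90, 6.55 and 8.39 CPM. With nicotinic acid it was 17.1, 19.7 and 12.7 CPM, and with MNA it was 23.7, 27.4 and 22.1 CPM. The lowest treated library, nicotinic acid 3, was above the highest control library, so the groups did not overlap with either compound. A separation of this kind toward higher levels was seen in 11.5% of all tested genes for MNA and in 10.7% for nicotinic acid. The mean rose from 6.61 ± 1.75 CPM in controls to 24.4 ± 2.76 with MNA (SD, n = 3), a 3.66-fold difference with a 95% interval of 2.67 to 5.01. On the log2 scale the difference was 1.87 with a standard error (SE) of 0.20, and the edgeR quasi-likelihood adjusted p was 0.000944. With nicotinic acid the mean was 16.5 ± 3.53 CPM (SD, n = 3), and the log2 difference from controls was 1.30 (SE 0.21, 2.47-fold, interval 1.79 to 3.39, edgeR adjusted p = 0.00992).

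dpy-9 encodes another furrow collagen with a dumpy loss-of-function phenotype, and it moved much as dpy-8 did. The control replicates 1, 2 and 3 held 3.19, 3.89 and 6.11 CPM of dpy-9. The nicotinic acid libraries held 11.2, 12.4 and 8.95 CPM, and the MNA libraries held 14, 16.5 and 13.7 CPM. As for dpy-8, the highest control library was control 3, the lowest treated library was nicotinic acid 3, and no treated library overlapped the controls. The mean was 4.40 ± 1.52 CPM in controls and 14.7 ± 1.55 CPM with MNA (SD, n = 3), a 3.31-fold difference (interval 2.42 to 4.55) with a log2 value of 1.73 (SE 0.21, edgeR adjusted p = 0.00102). With nicotinic acid the mean of dpy-9 was 10.8 ± 1.73 CPM (SD, n = 3), which gave a log2 difference of 1.28 (SE 0.21, 2.42-fold, interval 1.76 to 3.34, edgeR adjusted p = 0.00946). The RNA came from whole animals, so a change in the number of epidermal cells or in their share of the RNA cannot be told apart from a change in RNA per cell.

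dpy-7 is the furrow collagen most used as a marker of the furrows, and dpy-2 and dpy-3 are collagens of the same structures. The dpy-7 level was 19.8, 14.6 and 24.7 CPM in control replicates 1, 2 and 3. It was 15.9, 18.6 and 14 CPM with nicotinic acid and 19.1, 22.5 and 19.5 CPM with MNA. All MNA values of dpy-7 lay inside the range of the controls, and nicotinic acid 3 was the lowest of the 9 libraries. The dpy-2 level was 20.7, 15.7 and 21.1 CPM in controls. With nicotinic acid it was 15.9, 21.8 and 11.3 CPM, and with MNA 21.9, 20.9 and 18 CPM. Here too the groups overlapped and nicotinic acid 3 was the lowest of all. The dpy-3 level was 13.9, 10.3 and 17.7 CPM in controls. It was 12.3, 14.9 and 8.98 CPM with nicotinic acid and 16.4, 18.8 and 15.1 CPM with MNA. Its lowest library was again nicotinic acid 3, and its highest was MNA 2. Means for controls, nicotinic acid and MNA were 19.7 ± 5.03, 16.2 ± 2.27 and 20.3 ± 1.85 CPM for dpy-7 (SD, n = 3). They were 19.1 ± 3.02, 16.3 ± 5.29 and 20.2 ± 2.01 CPM for dpy-2, and 14 ± 3.66, 12 ± 2.95 and 16.8 ± 1.88 CPM for dpy-3.

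None of these genes passed the test against water. With MNA the log2 differences were 0.26 for dpy-3 (95% interval -0.22 to 0.74), 0.08 for dpy-2 (-0.42 to 0.58) and 0.04 for dpy-7 (-0.34 to 0.43), with edgeR adjusted p of 0.595, 0.907 and 0.934. With nicotinic acid they were -0.30 for dpy-7 (-0.68 to 0.09), -0.25 for dpy-2 (-0.76 to 0.26) and -0.23 for dpy-3 (-0.73 to 0.26), with edgeR adjusted p of 0.41, 0.625 and 0.641. The upper ends of all these intervals lie below the fitted differences of dpy-8 and dpy-9 with the same compound, whereas smaller changes in either direction lie inside them.

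dpy-10, a furrow collagen well known as the co-conversion marker of worm genome editing, differed from them in that both means with a compound were under the control mean. Its level was 39.1, 30.7 and 44.6 CPM in control replicates 1, 2 and 3. With nicotinic acid it was 22.3, 31.3 and 21.0 CPM, and with MNA 29, 31.5 and 27.4 CPM. Control 2 was the lowest control, and nicotinic acid 2 and MNA 2 lay just above it, so the groups overlapped. Means were 38.1 ± 7.03 CPM in controls, 24.9 ± 5.65 with nicotinic acid and 29.3 ± 2.08 with MNA (SD, n = 3). The log2 difference with nicotinic acid was -0.63 (SE 0.17, interval -1.03 to -0.23), with an unadjusted p of 0.00602 and an adjusted p of 0.0796 in edgeR. This call changed with the setting: DESeq2 gave an adjusted p of 0.00196 and limma-voom one of 0.0244, while edgeR gave 0.0282 when control 2 was left out and 0.0127 when nicotinic acid 2 was. Over all alternatives its adjusted p ran from 0.00196 to 0.264. With MNA the log2 difference was -0.38 (SE 0.17, interval -0.77 to 0.01, edgeR adjusted p = 0.279).

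**Figure D2:**
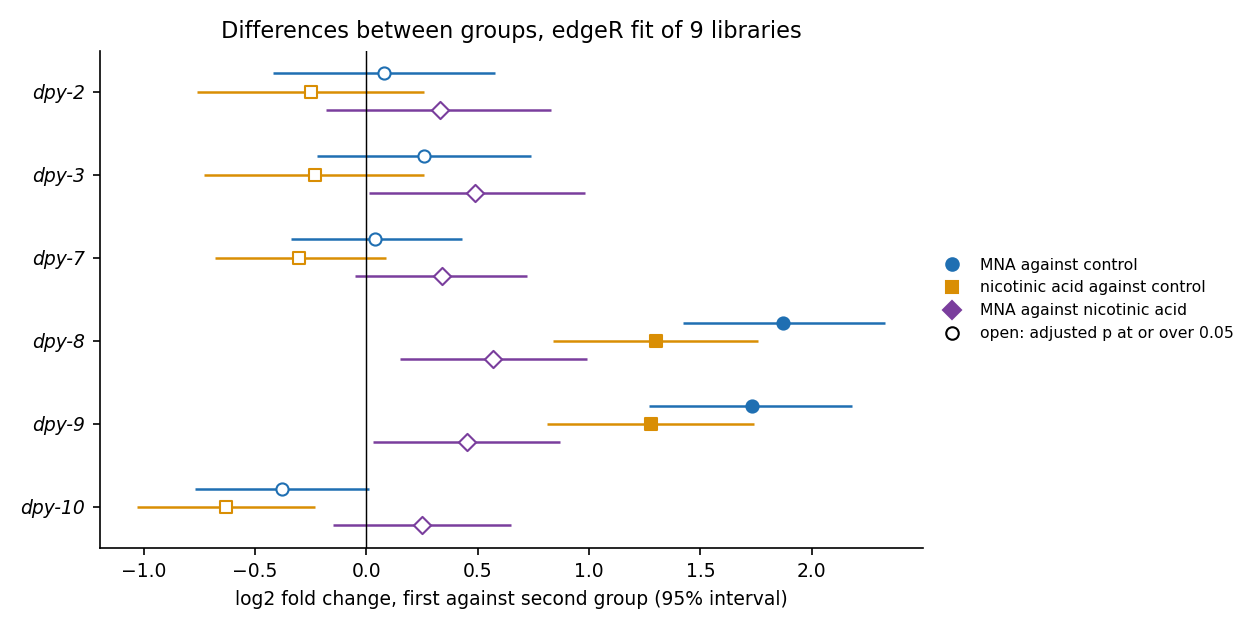
Log2 fold change of each furrow collagen gene for MNA against control, nicotinic acid against control and MNA against nicotinic acid; points are edgeR estimates and bars are 95% intervals. The intervals of dpy-8 and dpy-9 lie above 0 in both comparisons with water, and that of dpy-10 lies below 0 for nicotinic acid although its adjusted p was 0.0796.

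MNA and nicotinic acid were also set against each other, as treated and not at matched doses. In this comparison 0 of 6 members passed the edgeR adjusted threshold in either direction, where 1.1% of all tested genes were called higher with MNA and 0.315% lower. At an unadjusted p under 0.05, 3 members were higher with MNA and 0 lower, beside 7.2% and 6.36% of all genes, and DESeq2 and limma-voom called 0 in either direction. All 6 log2 differences were above 0, with a median of 0.40. The highest was 0.57 for dpy-8 (interval 0.15 to 0.99), with an unadjusted p of 0.0132 and an edgeR adjusted p of 0.213. The others were 0.49 for dpy-3 (interval 0.01 to 0.98), 0.45 for dpy-9 (0.03 to 0.87), 0.34 for dpy-7 (-0.05 to 0.72), 0.33 for dpy-2 (-0.18 to 0.83) and 0.25 for dpy-10 (-0.15 to 0.65). The MNA and nicotinic acid libraries did not overlap for dpy-3, dpy-7, dpy-8 and dpy-9, a separation found in 9.78% of all tested genes. In 4 of the 6 genes the lowest of all 9 libraries was nicotinic acid 3, and in the edgeR fit without that library no member was called either.

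To set the levels of the genes beside each other, CPM were divided by the kilobases of exon annotated in WBcel235. In control worms dpy-10 had the highest mean level, at 23.9 CPM per kilobase, followed by dpy-7 at 17.2, dpy-3 at 14.6 and dpy-2 at 14.5. dpy-8 and dpy-9 were far lower, at 4.37 ± 1.15 and 4.19 ± 1.45 CPM per kilobase (SD, n = 3). Of neighbours in this order, dpy-7, dpy-3 and dpy-2 differed by less than the SD between libraries, as did dpy-8 and dpy-9. The highest mean was 5.71 times the lowest in controls. With nicotinic acid dpy-10 stood at 15.6, dpy-7 at 14.1, dpy-3 at 12.5, dpy-2 at 12.3, dpy-8 at 10.9 and dpy-9 at 10.3 CPM per kilobase, and the highest was 1.51 times the lowest. With MNA the values were 18.4 for dpy-10, 17.7 for dpy-7, 17.5 for dpy-3, 16.1 for dpy-8, 15.3 for dpy-2 and 14 for dpy-9, and the ratio was 1.31. Neighbours in the order differed by less than the SD between libraries in both treated groups. The 6 means lay closer together in level in both treated groups than in controls.

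**Figure D3:**
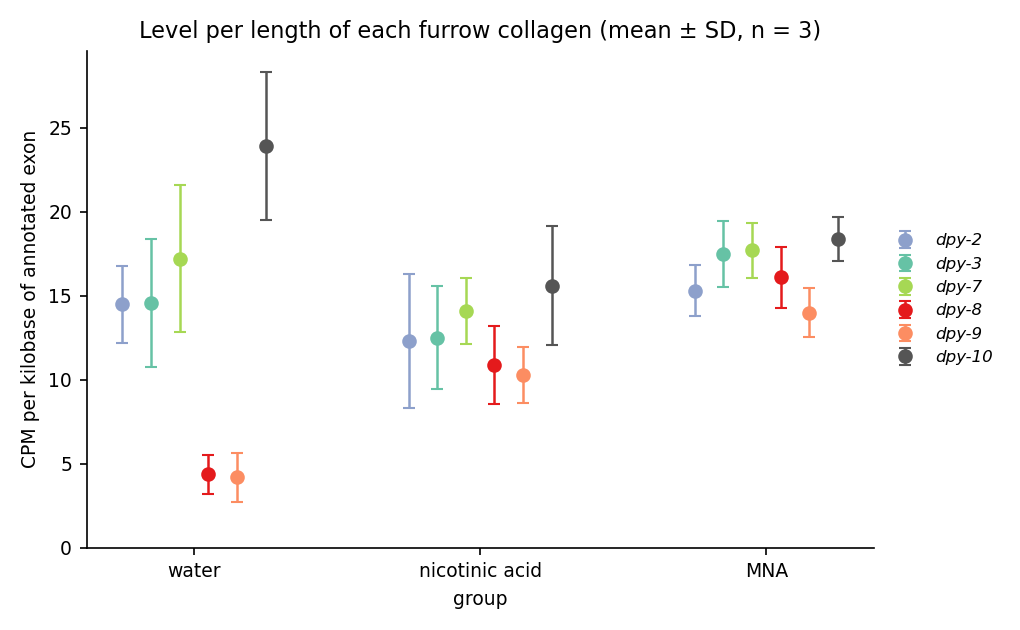
Level of each furrow collagen gene in CPM per kilobase of annotated exon, by group; points are group means and bars are the SD over 3 libraries. In controls dpy-8 and dpy-9 stand well under the other 4 genes, and with MNA all 6 means lie between 14 and 18.4 CPM per kilobase.

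The summed level of the 6 genes overlapped between groups. It was 81.7 to 123 CPM in controls, 76.9 to 119 with nicotinic acid and 116 to 138 with MNA. The shares of the genes within this sum lay further apart. Shares and ratios of counts are not scaled to gene length, so they are read between libraries and not as an order of the genes. dpy-8 and dpy-9 together made up 8.0% to 12.8% of the furrow collagen counts in control libraries, 27% to 29.9% with nicotinic acid and 30.3% to 31.9% with MNA. dpy-10 made up 36.4% to 38.5% in controls, 23.5% to 27.2% with nicotinic acid and 22.9% to 23.7% with MNA. The combined share of dpy-2, dpy-3 and dpy-7 was 49.7% to 53.6% in controls, 44.6% to 46.6% with nicotinic acid and 45.2% to 46.3% with MNA. This split into pools was chosen after the values were seen, so the shares are a description with no test. The shares of a library add up to a whole, so a higher share of dpy-8 plus dpy-9 means a lower share of the other genes together.

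**Figure D4:**
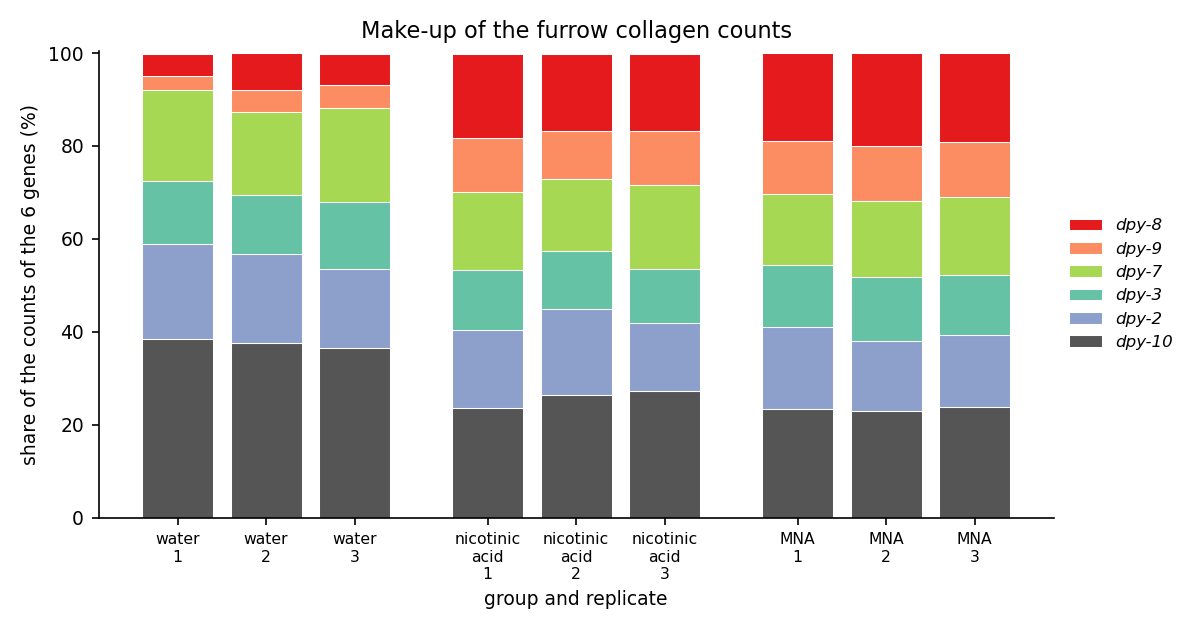
Share of the summed counts of the 6 furrow collagen genes, in percent, held by each gene, as stacked bars for each of the 9 libraries. The dpy-8 plus dpy-9 share is at most 12.8% in the control libraries and at least 27% in the treated ones.

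dpy-8 and dpy-9 kept nearly the same ratio throughout. The count of dpy-8 was 1.37 to 1.69 times that of dpy-9 over all 9 libraries. By contrast the ratio of dpy-8 to dpy-10 was 0.125 to 0.213 in controls, 0.608 to 0.77 with nicotinic acid and 0.805 to 0.87 with MNA. The ratio of dpy-10 to dpy-2, both on chromosome II, was 1.89 to 2.12 in controls, 1.4 to 1.86 with nicotinic acid and 1.33 to 1.52 with MNA. As a measure of likeness, each gene's log2 CPM was centred on its mean over the 9 libraries and the root mean square distance between genes was taken. The closest pair was dpy-8 and dpy-9 at 0.10, followed by dpy-3 and dpy-7 at 0.13, dpy-2 and dpy-3 at 0.15 and dpy-2 and dpy-7 at 0.18. dpy-10 lay 0.21 from dpy-7 and 0.29 from dpy-3. The distances of dpy-8 and dpy-9 to the other 4 genes ran from 0.73 to 1.02. These distances are descriptions over 9 libraries that share their depth between genes.

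By the same measure, the genes outside the 6 whose pattern was most like the mean of the 6, among those with a mean of at least 1 CPM, were Y73E7A.8 at 0.12, F20G2.3, K08B12.1 and R11.2 at 0.13, Y32G9B.1 and H03E18.1 at 0.14, lpr-4, pqn-35 and mlt-10 at 0.15, and F23H12.5 at 0.16. mlt-10 is a gene of the moult cycle and lpr-4 encodes a lipocalin-related protein. The mean of the 6 hides the split among them, and a search gene by gene, chosen after the values were seen, gave other neighbours. dpy-2 was nearest to lpr-3 (0.09) and mlt-8 (0.10), dpy-3 to lpr-6 (0.11), and dpy-7 to che-14 and K10D3.4 (0.11 each). dpy-10 was nearest to dao-2 (0.08), ceh-86 (0.10) and gei-13 (0.11). Apart from each other, dpy-8 was nearest to F52F10.2 and dpy-20 (0.19 each) and dpy-9 to F52F10.2 (0.16).

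Many other cuticle collagens were higher with the compounds, as dpy-8 and dpy-9 were, and 2 fell. Not all of them had the same pattern over the libraries. rol-1, bli-1, bli-2 and bli-6 were highest in nicotinic acid 1, at 2.34 to 2.52 in log2 CPM centred on each gene's mean. Their MNA libraries lay between -0.45 and 0.65. Of 19 listed collagens outside the furrows, 17 were tested, since ram-4 was not a symbol in the table and col-7 had at most 1 count. With MNA 8 were higher and 2 lower, where 3.63% and 3.78% of all tested genes were, with a median log2 difference of 1.65. The 8 included lon-3, a body length collagen, at 13.5 against 3.19 CPM (log2 2.07, SE 0.24, edgeR adjusted p = 0.00106). They also included rol-8 (log2 2.37), sqt-1 (2.39), dpy-4 (2.53), rol-6 (2.49), and dpy-13 and dpy-5, which are collagens of the annuli, at 2.49 and 2.48, with edgeR adjusted p from 0.00222 to 0.00843. All these genes kept their calls whichever library was left out. rol-6 and sqt-1 are the genes whose mutations make worms roll or squat. In terms of levels, dpy-13 stood at 18.9 CPM in controls and 106 CPM with MNA, a 5.61-fold difference.

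dpy-17 and dpy-14, collagens of the embryonic and early larval cuticle, were the 2 lower ones. dpy-17 had 153 ± 42.5 CPM in controls and 21.7 ± 5.65 with MNA (SD, n = 3; log2 -2.82, SE 0.47, edgeR adjusted p = 0.0188). dpy-14 had 129 CPM in controls and 18 with MNA (log2 -2.84, SE 0.53, edgeR adjusted p = 0.0268). Both calls rest on few libraries. The dpy-17 call was lost when control 1, control 3, MNA 1 or MNA 2 was left out, and the dpy-14 call when any of these, MNA 3 or nicotinic acid 3 was. The count of 2 lower collagens was then 0 for the first 4 of these libraries and 1 for the others. sqt-3, a collagen needed from the embryo on, had a log2 difference of -0.22 (edgeR adjusted p = 0.751), and col-19, an adult-specific collagen, one of -0.25 (edgeR adjusted p = 0.231).

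With nicotinic acid 12 of the 17 collagens were higher and 2 lower, where 1.94% and 3.4% of all tested genes were, with a median log2 difference of 1.74. lon-3 was higher at log2 1.80 (edgeR adjusted p = 0.00452), and it kept its call whichever library was left out. rol-8 (log2 1.61), rol-6 (1.60), sqt-1 (1.65), dpy-13 (1.66), dpy-5 (1.74) and dpy-4 (1.76) were higher with edgeR adjusted p from 0.0163 to 0.0355. Those calls hung on single libraries: each was lost when control 1 or nicotinic acid 1 was left out, and each but rol-8 also when nicotinic acid 2 was. Those of dpy-4, dpy-5 and dpy-13 were lost as well without control 2 or control 3, those of dpy-5, dpy-13 and rol-6 without MNA 1, those of dpy-5 and rol-6 without MNA 3, and that of dpy-5 without MNA 2. The count of 12 higher collagens became 1 when control 1 was left out and 4 when control 3, nicotinic acid 1 or MNA 1 was. It became 6 for control 2, nicotinic acid 2 or MNA 3 and 7 for MNA 2. It was 2 in a fit of the control and nicotinic acid libraries alone and 6 with no filter on low counts. A replicate block lowered the count of 12 as well, as given in the closing section. The lower genes were dpy-17 (log2 -2.42, edgeR adjusted p = 0.0372) and dpy-14 (log2 -2.56, edgeR adjusted p = 0.0462), and the count of 2 became 0 when control 1, control 3, nicotinic acid 2, nicotinic acid 3 or any MNA library was left out. sqt-3 had a log2 difference of -0.81 (edgeR adjusted p = 0.164) and col-19 one of 0.18 (edgeR adjusted p = 0.388). Between MNA and nicotinic acid 0 of 17 were called in either direction by edgeR, where 1.1% of all tested genes were higher and 0.315% lower. At an unadjusted p under 0.05, 6 were higher with MNA and 5 lower, beside 7.2% and 6.36% of all genes. DESeq2 called 0 higher and 1 lower there, and limma-voom 1 higher and 0 lower.

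**Figure D5:**
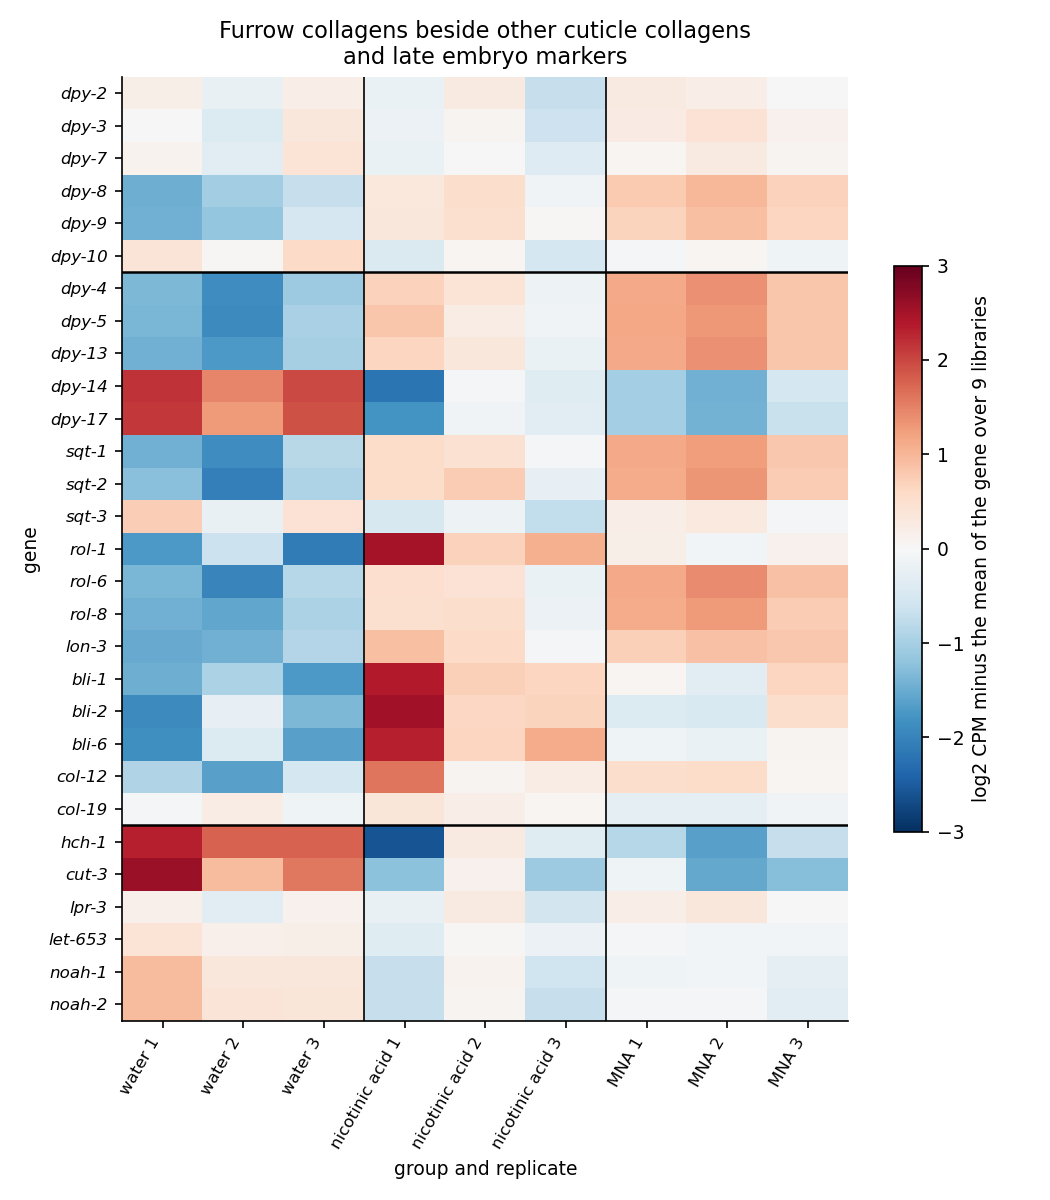
Heat map of log2 CPM minus each gene's mean over the 9 libraries (colour, from -3 to 3) for the furrow collagens, other named cuticle collagens and late embryo markers (rows) in each library (columns). dpy-8 and dpy-9 are low in the 3 control libraries, as are lon-3, rol-8 and dpy-13, while dpy-14, dpy-17, hch-1 and cut-3 are high there.

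Markers of other stages that whole adults can carry were measured beside these genes. Markers of late embryos and hatching, a list of 9 that holds dpy-14, dpy-17 and sqt-3 as well, summed to 589 to 971 CPM in controls, 248 to 423 with nicotinic acid and 351 to 387 with MNA, with none at 0. Of the 9, 4 were lower with MNA and 2 with nicotinic acid (edgeR, adjusted p under 0.05), with median log2 differences of -0.73 and -0.99. Of all tested genes 3.78% and 3.4% were called lower. The counts by other tools were higher: with nicotinic acid DESeq2 called 8 lower, limma-voom 7, and 8 were lower at an unadjusted p under 0.05. With MNA the corresponding counts were 4, 6 and 7. At that unadjusted threshold 10.6% of all genes were lower with nicotinic acid and 10.3% with MNA. Over all genes DESeq2 called 596 lower with nicotinic acid and limma-voom 512. With MNA these tools called 603 and 521 lower. The count of 4 became 0 when control 3, MNA 1 or MNA 2 was left out, and 1 when control 1, nicotinic acid 3 or MNA 3 was. The count of 2 became 0 when control 1, control 3, nicotinic acid 3 or any MNA library was left out, and 4 for nicotinic acid 2. Beside dpy-17 and dpy-14 the lower genes with MNA were hch-1, the hatching protease (log2 -3.01, edgeR adjusted p = 0.0343), and cut-3, an embryonic cuticlin (-2.83, edgeR adjusted p = 0.0346). Leaving out control 3, nicotinic acid 3 or any MNA library ended both calls, and for hch-1 control 1 or control 2 did so too. The markers that passed the test were lower where dpy-8 and dpy-9 were higher. With MNA 1 of the 9, lpr-3, had a difference above 0 (log2 0.19, edgeR adjusted p = 0.734). The part of these markers in the furrow collagen values was not tested.

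Markers of moulting larvae summed to 218 to 323 CPM in controls, 171 to 264 with nicotinic acid and 229 to 280 with MNA, so the groups overlapped. Of 10 such markers 4 were higher with MNA, where 3.63% of all tested genes were. They were mlt-10 (log2 0.73, edgeR adjusted p = 0.00139), ptr-11 (0.81, 0.00256), nas-36 (1.25, 0.0106) and qua-1 (1.51, 0.0126). qua-1 lost its call when MNA 2 was left out. DESeq2 and limma-voom each called 5 higher and 1 lower with MNA. At an unadjusted p under 0.05 edgeR had 5 higher and 1 lower, beside 8.6% and 10.3% of all genes. The edgeR count of lower markers with MNA was 0, and it became 1 when nicotinic acid 1 or nicotinic acid 2 was left out or when the control and MNA libraries were fitted alone. With nicotinic acid 0 of 10 were called by edgeR, and DESeq2 and limma-voom each called 1 higher and 1 lower. At an unadjusted p under 0.05 there were 3 higher and 1 lower, beside 8.59% and 10.6% of all genes. Between the compounds 1 was called, ptr-11, which was higher with MNA (log2 0.72, edgeR adjusted p = 0.0117) and lost its call when nicotinic acid 3, MNA 1 or MNA 2 was left out. Of all tested genes 1.1% were called higher there.

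Markers of adult hermaphrodites, yolk and eggshell genes among them, summed to 68600 to 80300 CPM in controls, 53300 to 72600 with nicotinic acid and 62300 to 66300 with MNA. None of the 9 was called by edgeR in any comparison. At an unadjusted p under 0.05, beside 10.3% and 10.6% of all genes, 2 of them were lower with MNA and 3 with nicotinic acid. DESeq2 called 1 of them lower with nicotinic acid, and 1 lower with MNA than with nicotinic acid, while limma-voom called 0 throughout. Sperm and male markers were low everywhere, at 1.51 to 1.98 CPM in controls, 5.34 to 15.6 with nicotinic acid and 2.18 to 3.47 with MNA in sum. Of these 8 markers, 3 could be tested, ssq-2, spe-11 and ssq-1. All 3 were higher with nicotinic acid (edgeR adjusted p of 0.012, 0.0233 and 0.0413), where 1.94% of all tested genes were. DESeq2 also called 3 and limma-voom 2. That count became 0 when control 1 or control 3 was left out and 1 when control 2 was. In controls spe-11 had 1, 3 and 3 counts, at or under the floor of 3 counts. All 3 genes were highest in nicotinic acid 1. There ssq-2 had 210 counts, against 47 and 72 in nicotinic acid 2 and 3. With MNA 0 of the 3 were called by edgeR, DESeq2 or limma-voom, or at an unadjusted p under 0.05. Between the compounds edgeR and limma-voom called 0, while DESeq2 called 2 lower with MNA. All 3 were lower with MNA at an unadjusted p under 0.05, beside 6.36% of all genes. The part of these lists in the furrow collagen values was not tested.

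Few genes that process and crosslink collagen passed the test. Of 15 listed, 13 were tested, with a median log2 difference of 0.01 with MNA and -0.05 with nicotinic acid. The edgeR count was 0 against water for both compounds, as were those by DESeq2 and limma-voom. At an unadjusted p under 0.05, 1 was higher with MNA and 2 lower with nicotinic acid, beside 8.6% and 10.6% of all genes. The adjusted edgeR count with MNA became 1 higher when MNA 3 was left out, and that with nicotinic acid 2 lower when nicotinic acid 2 was. Between the compounds dpy-18, the catalytic subunit of the prolyl hydroxylase that modifies collagen chains, was higher with MNA (log2 0.49, edgeR adjusted p = 0.0171). Leaving out nicotinic acid 1, nicotinic acid 3, MNA 1 or MNA 2 ended that call. Of all tested genes 1.1% were called higher in this comparison.

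The response genes known to switch on when furrow collagens are lost were mixed. Of 14 listed, 13 were tested. With MNA 2 were higher and 1 lower by edgeR, where 3.63% and 3.78% of all tested genes were. DESeq2 and limma-voom gave the same counts. At an unadjusted p under 0.05 there were 5 higher and 3 lower with MNA, beside 8.6% and 10.3% of all genes. The 2 higher ones were gst-4 (log2 1.00, edgeR adjusted p = 0.000373) and gst-10 (1.02, edgeR adjusted p = 0.000981), both glutathione S-transferases. The antimicrobial peptide gene cnc-2 was lower with MNA (log2 -1.09, edgeR adjusted p = 0.0211). Leaving out control 3 or any MNA library ended the cnc-2 call. nlp-29, the best known of these peptide genes, had a log2 difference of -0.37 (edgeR adjusted p = 0.13). With nicotinic acid 3 were higher and 1 lower by edgeR, against 1.94% and 3.4% of all tested genes. DESeq2 gave the same counts, and limma-voom 2 higher and 0 lower. At an unadjusted p under 0.05 there were 4 higher and 4 lower, beside 8.59% and 10.6%. The 3 higher ones were the transporter gene hmit-1.1 (log2 0.70, edgeR adjusted p = 0.0137), gpdh-1, an enzyme of glycerol synthesis (0.67, 0.0451), and gst-10 (0.52, 0.0449). The edgeR count of 3 became 1 when control 1, control 3, nicotinic acid 3 or MNA 2 was left out, and 0 for nicotinic acid 1. cnc-4 was lower with nicotinic acid (log2 -1.32, edgeR adjusted p = 0.0451). Leaving out any library but control 2 or MNA 3 ended the cnc-4 call. Between the compounds gst-4 was higher with MNA (log2 0.70, edgeR adjusted p = 0.00569) and gpdh-1 lower (-0.92, 0.0217). The gpdh-1 call was lost when nicotinic acid 1, nicotinic acid 2, MNA 1 or MNA 2 was left out.

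Of 14 listed symbols of transcription factors of the epidermis and the moult, 11 were tested. The list held 1 gene under both of its names, myrf-1, which has no row in the count table, and pqn-47, which was tested. With MNA 2 were higher and 0 lower, where 3.63% and 3.78% of all tested genes were, and with nicotinic acid 0 were higher and 1 lower, against 1.94% and 3.4%. At an unadjusted p under 0.05 the counts with MNA were 3 higher and 4 lower, beside 8.6% and 10.3% of all genes. With nicotinic acid they were 2 higher and 4 lower, beside 8.59% and 10.6%. DESeq2 called 2 higher and 1 lower with MNA and 0 higher and 1 lower with nicotinic acid, and limma-voom 1 higher and 0 lower, and 0 higher and 1 lower. With MNA bed-3, a zinc finger factor needed for moulting, was higher by a log2 difference of 0.51 (edgeR adjusted p = 0.0376), as was pqn-47, the Myrf-family gene also called myrf-1, by 0.22 (edgeR adjusted p = 0.0404). This count of 2 became 0 when control 2 or any MNA library was left out, and 1 when control 1, control 3 or nicotinic acid 3 was. The edgeR count of lower factors with MNA became 1 when control 2, nicotinic acid 1 or nicotinic acid 2 was left out. With nicotinic acid elt-1, the GATA factor of epidermal fate, was lower by -0.36 on the log2 scale (edgeR adjusted p = 0.0473). Leaving out any library but nicotinic acid 2 ended the elt-1 call. Between the compounds 0 of 11 were called by edgeR, DESeq2 or limma-voom. At an unadjusted p under 0.05 there 2 were higher with MNA and 0 lower, beside 7.2% and 6.36% of all genes.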

How the data were processed

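Whole-animal RNA was sequenced in 9 libraries. Per the labels' protocols, total RNA was extracted with QIAzol and libraries were made with a TruSeq RNA kit. The submitters' processing notes name TopHat 1.4.1, CASAVA and HTSeq. Build, annotation and counting settings: not given in the sources used here. The authors deposited raw counts per gene, which were used for every test, and RPKM values, which entered only an alternative. The deposited RPKM values imply gene lengths unlike the annotated ones, so levels per length used exon bases of the WBcel235 annotation.

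Genes passing edgeR's filterByExpr at a minimum count of 10 were fitted in 1 quasi-likelihood model of group over all 9 libraries (edgeR 4.0.16, limma 3.58.1, R 4.3.3, TMM factors 0.963 to 1.028). Tests were two-sided, with Benjamini-Hochberg adjustment over all 13985 genes tested and a threshold of 0.05. The model was tested on simulated data. CPM are counts scaled to a common, TMM-adjusted library total. Alternatives were DESeq2 1.42.0 (test, and its size factors in edgeR), library totals without TMM, limma-voom, no filter, RPKM with pseudocounts of 0.5 and 0.1, the libraries of each comparison alone, a replicate block and each library left out. Replicates of a group differed by more than sampling noise, with a chi-square per degree of freedom of 3.0 to 15.23. The labels do not say that replicates are separate cultures, so p-values measure the spread between these libraries.

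The named genes were the 6 members, up to 4 called genes of each list with the smallest p in each comparison, dpy-5, dpy-13, sqt-3, dpy-17, rol-6, sqt-1 and col-19, and the 10 genes of most like pattern. nlp-29, lpr-3, rol-1, bli-1, bli-2, bli-6 and the genes nearest to each single member were named outside this rule. The members and lists were chosen with earlier results of these data known. Promoter and protein sequences were not analysed here.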

Additional observations from a re-analysis of the deposited data

How the results depend on the processing

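Over 18 alternative settings, dpy-8 and dpy-9 were called higher with both compounds in every one. Of 324 values of the 6 furrow collagens 320 kept their side of the threshold. Some differences near 0 that did not pass changed direction. With MNA dpy-2 went from a log2 difference of 0.08 to -0.05 when control 2 was left out. That of dpy-7 went from 0.04 to -0.13 without control 2 and to -0.03 without MNA 2. With MNA the log2 difference of dpy-8 ran from 1.70 to 2.09 and that of dpy-9 from 1.55 to 2.05, and with nicotinic acid from 1.13 to 1.52 and 1.1 to 1.60. The other 4 values are those of dpy-10 with nicotinic acid, whose adjusted p ran from 0.00196 to 0.264. It raised the count of lower furrow collagens from 0 to 1 in DESeq2 and to 1 in limma-voom, and from 0 to 1 over the fits that left out 1 library. Between the compounds no member was called under any alternative.

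Counts over all genes moved more, and the cause was not tested. Against water, 508 genes were higher and 528 lower with MNA; leaving out 1 library gave 228 to 565 and 141 to 630, and RPKM gave 268 and 246 lower at pseudocounts of 0.5 and 0.1. With nicotinic acid 272 were higher and 475 lower. Higher counts were 475 with no filter, 163 with RPKM plus 0.5, 144 with 6 libraries alone and 88 to 280 with 1 library left out. Lower counts were 186 and 186 with RPKM, 244 with 6 libraries and 166 to 558 with 1 library left out. Between the compounds 154 were higher and 44 lower. Higher counts were 281 with no filter, 259 in DESeq2, 96 and 95 with RPKM and 75 to 258 with 1 library left out. Lower counts were 150, 135, 11 and 12, and 1 to 160.

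Same-numbered replicates deviated together only weakly, with correlations of -0.201 to 0.159. These correlations cannot show whether same-numbered libraries were handled together, and the labels do not say so. A replicate block changed no call of a furrow collagen. It gave 3 higher collagens outside the furrows with nicotinic acid, against 12 without it, and 92 genes lower with MNA than with nicotinic acid. With 3 libraries per group the 95% intervals given for dpy-2, dpy-3 and dpy-7 set the precision of those values.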

Other observations

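The deposited RPKM values could not be used to rank the furrow collagens. Dividing counts by RPKM and the library total gave a gene length within 0.01 bases of a whole number in 15510 of 15512 genes with counts in all libraries. For dpy-2, dpy-7 and dpy-9 this length was 128, 149 and 146 bases, where the WBcel235 annotation gives 1324, 1147 and 1049 exon bases. For dpy-10 it was 3803 against 1593, for dpy-3 1455 against 961 and for dpy-8 1639 against 1513. Among 12677 genes matched to the annotation, the implied length was under 0.5 times the annotated one in 5190, or 40.9%. In controls the highest mean RPKM among the 6 genes was 149 for dpy-2 and the lowest 4.01 for dpy-8, a ratio of 37.1, where annotated lengths gave 5.71 between dpy-10 and dpy-9. Fold changes of 1 gene between libraries are not touched by this, since its length is the same in each. What these lengths stand for was not tested.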
